A study of Rattus norvegicus with 12 samples.

Results

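A set of 7 genes of the tripartite motif (TRIM) family that act in innate immunity was followed across the 4 groups of an RNA-seq experiment in neonatal rat ventricular myocytes (NRVMs). The genes were chosen by name, with earlier results of these data known. They were Trim30, Trim21, Trim25, Trim14, Trim26, Trim28 and Trim32, 7 of the 8 listed names and of the 18483 genes with a row in the files. Trim56, the eighth name, is not analysed here. NRVMs are beating heart muscle cells cultured from newborn Sprague-Dawley rats. They were transfected with siNeg, a control siRNA, or with siSlc39a2, an siRNA against Slc39a2, which encodes a zinc importer of the cell membrane. Cells of each kind were left untreated (siNeg and siSlc39a2) or were treated with phenylephrine (siNeg PE and siSlc39a2 PE), an agonist of alpha-adrenergic receptors that makes these cells hypertrophic. By the labels, PE was begun 12 h after transfection and lasted 36 h, whereas the culture methods of the study give a longer treatment. Each group had 3 cultures, 12 in all, and no source ties a culture to an animal, so p-values measure the spread between these cultures.

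Most TRIM proteins carry a RING domain that transfers ubiquitin, then B-box and coiled-coil domains, and many end in a domain that binds a target. Several add ubiquitin chains to sensors of viral nucleic acid or to their adaptors, and so raise or restrain the output of interferon and of NF-κB. Many TRIM genes are themselves switched on by interferon, through response elements in their promoters, whereas others are expressed in nearly all cells.

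The effect of the siRNA was seen in its target. Slc39a2 had 50, 50 and 59 counts in the siNeg cultures and 21, 11 and 2 in the siSlc39a2 cultures, a log2 fold change (log2FC) of -2.35 (standard error, SE, 0.46 and adjusted p = 9.80e-04). With PE it had 95, 198 and 182 counts against 31, 25 and 38 (log2FC -2.33, adjusted p = 2.24e-04). Total counts per sample were between 24065539 and 28603854. The labelled cell type was checked by marker genes. The scaled counts (CPM, per 1e+06 counts of the library) of 12 cardiomyocyte markers summed to between 50192 and 52334 in siNeg and between 39411 and 40799 in siSlc39a2, and to between 48812 and 52406 in siNeg PE and between 45357 and 47182 in siSlc39a2 PE. Other cells were present. The sum of 12 fibroblast markers was between 13983 and 18507 CPM in siNeg and between 5413 and 5719 in siSlc39a2, and between 9318 and 11912 in siNeg PE and between 3657 and 5054 in siSlc39a2 PE. In bulk RNA, fewer cells of a type and less RNA per cell cannot be told apart.

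The promoters of the genes were read from the RefSeq table of build GRCr8, which matched 6 of the 7 by gene identifier and holds no entry used here for Trim14. The files use build Rnor_6.0, so these positions belong to GRCr8 alone. The row named Trim30 in the files (NCBI gene 499223) is named Trim30d in that table. Each window of 300 bases was searched on both strands for GAAANNGAAA, the core of the interferon-stimulated response element, and for TTCNNNGAA, the interferon gamma activated site. The first was in 3.92% of all 33469 promoters of the table and the second in 8.87%. Among the 12292 promoters of genes tested here, the shares were 2.99% and 7.06%. Trim21 and Trim26 each held 2 overlapping matches to GAAANNGAAA. The other 4 windows held none, and no window of the 6 held TTCNNNGAA. Start sites were taken from RefSeq and not checked in these cultures. The Trim30d window opens with a long run of codons without a stop, as an exon would. It may therefore lie inside the gene, and the promoter of Trim30 may not have been searched. The 250 bases before the start site are given for these 2 genes and, as windows without a match, for Trim25 and Trim28. Capitals mark the matches to GAAANNGAAA, which lie on the minus strand of the gene in Trim26 and read there as its reverse complement.
Trim21: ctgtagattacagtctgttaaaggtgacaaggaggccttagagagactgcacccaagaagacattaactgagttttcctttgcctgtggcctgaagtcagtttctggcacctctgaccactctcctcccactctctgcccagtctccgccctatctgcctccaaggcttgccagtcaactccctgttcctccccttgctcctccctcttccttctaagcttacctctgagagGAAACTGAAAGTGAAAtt
Trim26: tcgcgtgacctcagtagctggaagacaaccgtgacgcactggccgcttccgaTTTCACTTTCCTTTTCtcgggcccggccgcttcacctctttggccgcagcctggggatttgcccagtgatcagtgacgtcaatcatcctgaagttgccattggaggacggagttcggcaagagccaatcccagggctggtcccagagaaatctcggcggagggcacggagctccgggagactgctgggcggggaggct
Trim25: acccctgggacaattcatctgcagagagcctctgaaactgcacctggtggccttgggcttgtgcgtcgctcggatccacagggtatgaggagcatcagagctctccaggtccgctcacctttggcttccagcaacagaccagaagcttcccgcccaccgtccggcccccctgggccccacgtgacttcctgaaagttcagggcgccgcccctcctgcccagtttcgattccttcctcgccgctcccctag
Trim28: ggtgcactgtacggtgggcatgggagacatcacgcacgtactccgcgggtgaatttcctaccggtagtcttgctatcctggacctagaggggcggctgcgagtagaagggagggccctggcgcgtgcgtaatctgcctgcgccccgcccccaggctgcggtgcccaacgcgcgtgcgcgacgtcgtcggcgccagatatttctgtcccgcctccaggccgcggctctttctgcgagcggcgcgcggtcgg
These are chr1:166399372-166399621 on the minus strand for Trim21, chr20:1736312-1736561 on the minus strand for Trim26, chr10:74309774-74310023 on the plus strand for Trim25 and chr1:82724645-82724894 on the plus strand for Trim28. The matches in Trim21 cover bases -18 to -3 from the start site, and those in Trim26 cover bases -198 to -183. A match is a run of letters and was not tested as a binding site.

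**Figure D1:**
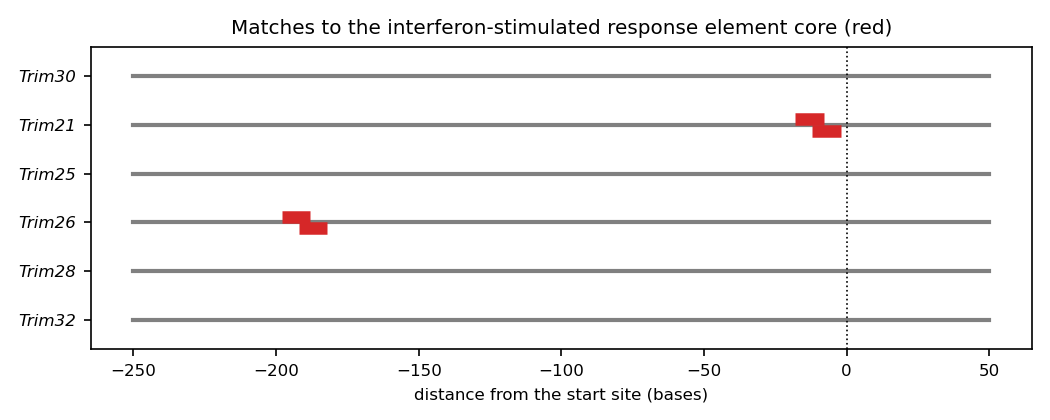
Matches to the core of the interferon-stimulated response element (red) in the promoter windows of 6 TRIM genes, by distance from the start site in bases; overlapping matches are set slightly above and below the line. Trim21 and Trim26 hold 2 matches each, and the 4 other windows hold none. The Trim30 window may lie inside the gene rather than at its promoter.

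To find how the TRIM genes differed after knockdown of Slc39a2, siSlc39a2 was compared with siNeg. The study lists no other siRNA against Slc39a2. The loss of Slc39a2 and any other effect of this siRNA therefore cannot be told apart here. Knockdown effect, as used below, means the difference between these groups. Of the 7 genes, 5 were called higher, that is, passed 1 in log2FC with an adjusted p under 0.05. Among all 13967 genes tested, 4.57% were called higher. With PE, siSlc39a2 PE against siNeg PE, 4 of the 7 were called higher, where 6.03% of all genes were. Since the genes were chosen with earlier results of these data known, these counts describe the 7 and do not test them as a set. Trim30, Trim21, Trim25 and Trim14 were called higher in both and are grouped here as induced. Trim28 and Trim32 passed the fold threshold in none of the 4 comparisons and are grouped as constitutive. Trim26 was between the groups. Trim30 and Trim14 passed the filter on low counts through the siSlc39a2 groups, since 0 of 6 control samples of Trim30 and 1 of 6 of Trim14 reached the 0.364 CPM it asks for. The median log2FC of the 7 was 1.61 without PE and 1.60 with PE, and that of all genes was -0.02 and 0.01.

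Trim30 had the largest log2FC of the 7. It belongs to a rodent family whose founder in mice restrains Toll-like receptor signalling by the loss of the TAB adaptors. It had 1, 2 and 3 counts in the siNeg cultures and 785, 683 and 879 in the siSlc39a2 cultures. With PE it had 0, 9 and 6 counts in siNeg PE and 700, 971 and 1374 in siSlc39a2 PE. The groups were far apart in both settings, and the control cultures held almost no reads of this gene. Its level was 28.2 ± 5.64 CPM (SD, n = 3) in siSlc39a2 and 36.5 ± 12.2 (SD, n = 3) in siSlc39a2 PE. The fitted log2FC was 8.42 (SE 0.48, adjusted p = 1.77e-08) without PE and 7.62 (SE 0.42, adjusted p = 1.30e-08) with PE. It ranked 20 and 16 from the top of all genes tested. Since the controls had so few counts, the ratio of summed counts is also given, with an exact 95% interval for counting error only. It was 359 (164 to 978) without PE and 202 (122 to 361) with PE. Trim30c, the gene next to it in the RefSeq order and a close relative, had 0 counts in every control culture and 0 to 4 in the knockdown cultures. Trim30c was named after its values were seen.

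Trim21 encodes a cytosolic antibody receptor that marks antibody-coated virus for the proteasome. Its counts were 79, 122 and 123 in siNeg and 1462, 1451 and 1642 in siSlc39a2. With PE they were 125, 190 and 192 against 1880, 2354 and 3259. The lowest knockdown culture was far above the highest control in both settings. Its level went from 4.20 ± 0.939 (SD, n = 3) to 54.6 ± 8.21 CPM (SD, n = 3) without PE, a log2FC of 3.70 (SE 0.24, adjusted p = 5.19e-08). With PE it went from 6.11 ± 1.32 (SD, n = 3) to 89.9 ± 25.3 CPM (SD, n = 3), a log2FC of 3.88 (SE 0.23, adjusted p = 2.62e-08). Replicate 3 was the highest of siSlc39a2 PE for Trim21, at 118 CPM, and for Trim30, at 49.96 CPM.

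Trim25 attaches ubiquitin to the RNA sensor RIG-I and ISG15 to other proteins. Its counts were 2116, 2401 and 2407 in siNeg cultures and 8168, 8026 and 6933 in siSlc39a2 cultures, with a wide gap between them. The level went from 89.8 ± 5.73 (SD, n = 3) to 274.8 ± 6.58 CPM (SD, n = 3), a log2FC of 1.61 (SE 0.06, adjusted p = 3.18e-10). With PE the level was 81.8 ± 2.61 CPM (SD, n = 3) in siNeg PE and 247.6 ± 11.8 CPM (SD, n = 3) in siSlc39a2 PE, and the log2FC was 1.60 (SE 0.06, adjusted p = 4.21e-10). Both folds, 3.06 and 3.03, were close in value, and the cultures of a group lay close together.

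Trim14 lacks a RING domain and acts as an adaptor at the mitochondrial protein MAVS. It was scarce, with 5, 9 and 14 counts in the siNeg cultures and 93, 98 and 89 in the siSlc39a2 cultures. With PE it had 3, 5 and 2 counts against 49, 58 and 75. The groups did not overlap in either setting. The log2FC was 3.18 (SE 0.30, adjusted p = 2.64e-06) without PE and 4.13 (SE 0.37, adjusted p = 1.27e-06) with PE. By summed counts the ratio was 9.17 (exact 95% interval 6.21 to 14.0, counting error only) and 18.1 (9.62 to 38.4). On the log2(FPKM + 1) scale, which understates the change of scarce genes, limma gave 0.89 and 0.65, under the fold threshold.

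Trim26, an E3 ligase that acts on the kinase complex and on IRF3 of the interferon pathway, changed less. Its level was 45.5, 44.7 and 46.1 CPM in siNeg and 104.4, 99.1 and 95.1 CPM in siSlc39a2. With PE it was 39.6, 40.2 and 40.4 CPM against 72.3, 71.1 and 81.2 CPM. Every knockdown culture was above every control. The log2FC was 1.13 (SE 0.07, adjusted p = 2.32e-08) without PE and 0.90 (SE 0.07, adjusted p = 2.29e-07) with PE, the second under the fold threshold. In 5 of 12 samples its counts were not whole numbers, which is what a split of reads between genes gives, and its values are uncertain to that extent. The 6 other genes had whole counts in every sample.

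Trim28 and Trim32 went the other way by a small amount. Trim28 (KAP1) is the corepressor that zinc finger proteins recruit to silence retroelements, and Trim32 is a ligase that acts on muscle proteins and on the adaptor STING, and its loss causes a muscular dystrophy. Trim28 was at 417, 400.3 and 413.5 CPM in siNeg and 355, 354 and 318 CPM in siSlc39a2, and with PE at 337, 329 and 329 CPM against 313, 282 and 274 CPM. Its log2FC was -0.26 (SE 0.06, adjusted p = 0.0045) without PE and -0.19 (SE 0.06, adjusted p = 0.0198) with PE. Trim32 was at 49.7, 46.7 and 51.3 CPM in siNeg and 39.8, 41.1 and 37.3 CPM in siSlc39a2, and with PE at 41.4, 40.5 and 40.8 CPM against 35.3, 31.9 and 29.3 CPM. Its log2FC was -0.32 (SE 0.08, adjusted p = 0.0041) without PE and -0.35 (SE 0.08, adjusted p = 0.0022) with PE. The groups of both genes did not overlap. For 3 against 3 cultures the smallest exact permutation p is 0.1, and the share of all genes without overlap was not counted. The siSlc39a2 cultures held 83.4% of the siNeg level of Trim28 and 80.1% of that of Trim32. Such small falls were common. At an adjusted p below 0.05 alone, 26.4% of all genes were lower in the knockdown without PE and 28.1% with PE. Without siSlc39a2 replicate 3 the value of Trim28 was -0.16 (adjusted p = 0.0653). With PE its adjusted p was 0.0514 without siNeg PE replicate 1, 0.0744 without siSlc39a2 PE replicate 2 and 0.0833 without siSlc39a2 PE replicate 3. Scaled to total counts in place of TMM, an alternative added after seeing the data, the median of all genes moved to 0.13, and Trim28 was at -0.12 (adjusted p = 0.103) and Trim32 at -0.18 (adjusted p = 0.0617). Relative to that median they were at -0.25 and -0.30.

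**Figure D2:**
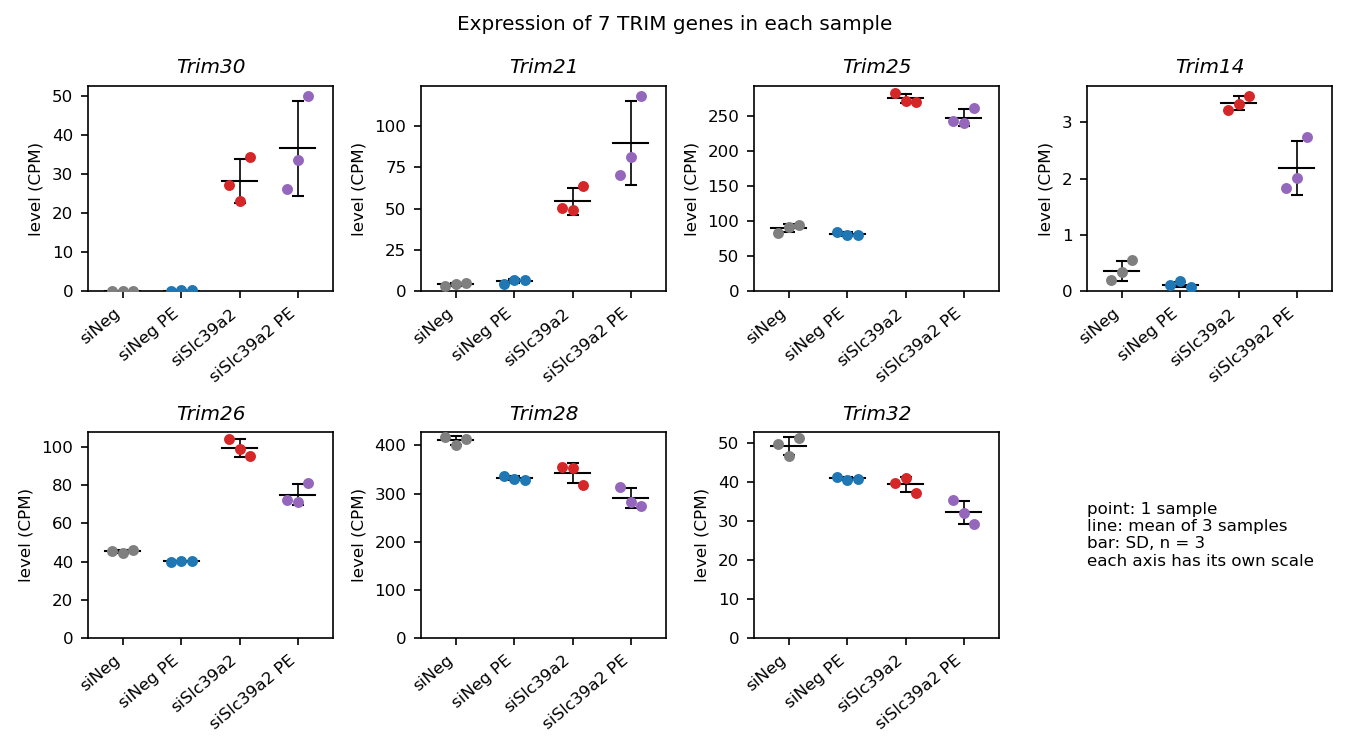
Level of each of the 7 TRIM genes in CPM in every culture (points), with the mean of 3 cultures (line) and SD (bar), on a separate axis for each gene. Trim30, Trim21, Trim25, Trim14 and Trim26 are higher in both siSlc39a2 groups than in both siNeg groups, whereas Trim28 and Trim32 are highest in siNeg.

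Compared per length of transcript, in FPKM, the constitutive genes did not form a single level. Trim28 was the most abundant of the 7 in siNeg, at 134.9 ± 2.86 FPKM (SD, n = 3). Trim25 at 15.5 ± 2.08 and Trim32 at 14.9 ± 0.695 overlapped and were followed by Trim26 at 11.1 ± 0.333 FPKM. Trim21 was at 1.02 ± 0.282, Trim14 at 0.117 ± 0.0603 and Trim30 at 0.020 ± 0.010 FPKM. In siSlc39a2 the order was Trim28 (124.2 ± 6.02 FPKM), Trim25 (50.3 ± 3.20), Trim26 (27.2 ± 0.733), Trim21 (14.1 ± 2.34), Trim32 (13.2 ± 0.414), Trim30 (8.03 ± 1.73) and Trim14 (1.10 ± 0.0985). The ranges of Trim21 and Trim32 overlapped there. In siSlc39a2 PE, Trim21 at 22.4 ± 6.33 FPKM overlapped Trim26 at 19.6 ± 1.17, and Trim30 at 10 ± 3.36 overlapped Trim32 at 10.3 ± 0.959. The summed level of the 7 genes was 177 ± 5.66 FPKM in siNeg and 238 ± 6.48 in siSlc39a2, and 155 ± 1.70 in siNeg PE and 207 ± 7.71 in siSlc39a2 PE.

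The make-up of this sum differed between the groups. Trim28 took 76.0% ± 1.03 (SD, n = 3) of it in siNeg and 52.1% ± 1.45 in siSlc39a2, and 74.4% ± 0.512 in siNeg PE and 48.9% ± 4.33 in siSlc39a2 PE. Trim25 took 8.70% ± 0.961 in siNeg and 21.1% ± 0.764 in siSlc39a2. Trim21 took 0.572% ± 0.145 in siNeg, 5.95% ± 1.13 in siSlc39a2 and 10.7% ± 2.65 in siSlc39a2 PE. Trim30 took 0.0112% ± 0.0053 in siNeg and 3.38% ± 0.797 in siSlc39a2. These shares restate the levels above and were not tested.

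**Figure D3:**
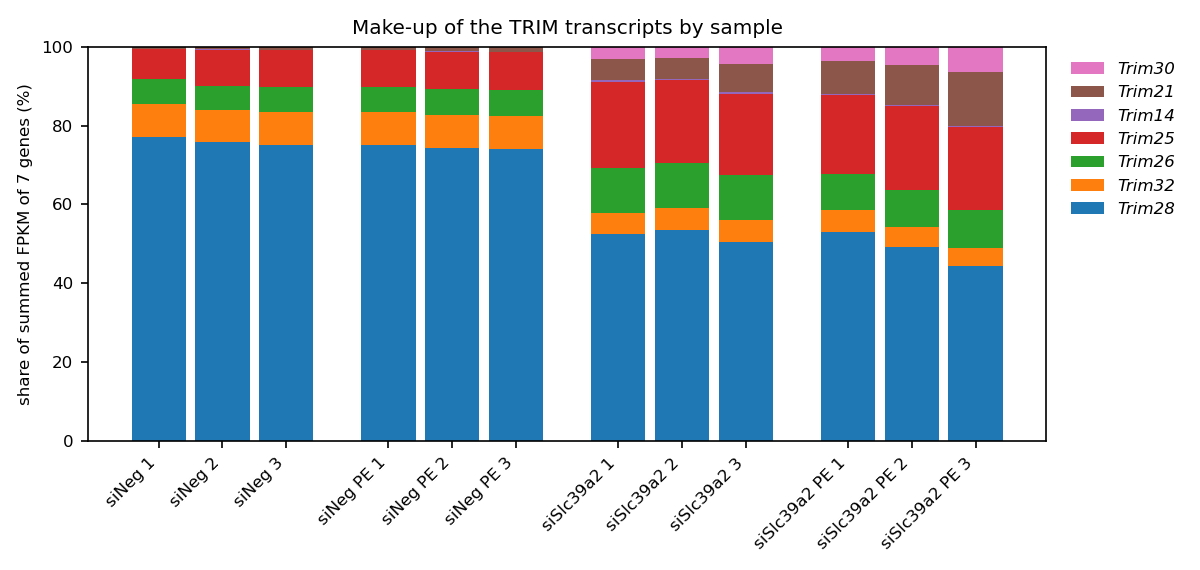
Share of each TRIM gene in the summed FPKM of the 7 genes, in percent, for each of the 12 cultures. Trim28 holds between 75.1% and 77.1% in siNeg and between 50.6% and 53.5% in siSlc39a2.

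The effect of PE itself was compared within siNeg cells and within siSlc39a2 cells. In siNeg cells, 4 of the 7 were lower at an adjusted p below 0.05 alone, where 25.7% of all genes were. Trim28 fell by 0.31 on the log2 scale (adjusted p = 0.00195), Trim32 fell by 0.27 (adjusted p = 0.0123) and Trim26 fell by 0.18 (adjusted p = 0.0392). The adjusted p of Trim26 missed the threshold in 10 of 14 alternatives, among them each fit without 1 replicate (adjusted p up to 0.0938), and without it 3 of the 7 were lower. The siNeg PE cultures of Trim28, between 329 and 337 CPM, all lay under those of siNeg. Trim14 was the one gene called lower past the fold threshold, at a log2FC of -1.55 (SE 0.46, adjusted p = 0.0139), where 2.8% of all genes were. That call stands on 28 counts against 10 over 3 cultures each, and it was lost without siNeg replicate 3 (-1.13, adjusted p = 0.0918) or siNeg PE replicate 3 (-1.31, adjusted p = 0.0591). Trim30 was at 1.17 (SE 1.11, adjusted p = 0.394), Trim21 at 0.54 (SE 0.25, adjusted p = 0.0882) and Trim25 at -0.13 (SE 0.06, adjusted p = 0.0884). The rise of Trim21 passed the threshold in 3 of 14 alternatives. These were DESeq2 (adjusted p = 0.0346), edgeR with a block for replicate number (adjusted p = 0.00688) and edgeR without siNeg PE replicate 1 (0.71, adjusted p = 0.0392).

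In siSlc39a2 cells, PE raised Trim21, and 5 of the 7 genes were lower at an adjusted p below 0.05 alone. Of all genes, 30.7% were higher and 29.3% lower by this rule. Trim21 rose by 0.72 on the log2 scale (SE 0.19, adjusted p = 0.0065), from between 49.1 and 64.0 CPM to between 70.1 and 118 CPM, with no overlap. Without siSlc39a2 PE replicate 3, its highest culture, the rise of Trim21 was 0.47. Trim26 fell by 0.41 (SE 0.07, adjusted p = 1.99e-04). Trim32 fell by 0.29 (adjusted p = 0.0059) and Trim28 fell by 0.24 (adjusted p = 0.0060). Trim14 fell by 0.61 (adjusted p = 0.0473) and Trim25 fell by 0.15 (adjusted p = 0.0474), both near the threshold. The adjusted p missed it in 5 of 14 alternatives for Trim14 and in 7 of 14 for Trim25. Most of these were fits without 1 replicate, with an adjusted p up to 0.131 for Trim14 and 0.157 for Trim25. The count of 5 of the 7 includes both genes. Trim30 was at 0.38 (SE 0.24, adjusted p = 0.186). It was at 0.55 (adjusted p = 0.0455) without siSlc39a2 PE replicate 1 and at 0.084 (adjusted p = 0.761) without siSlc39a2 PE replicate 3. The comparisons with PE share their control cultures with the knockdown comparisons, so the values are given side by side and no relation between them was computed.

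Whether PE altered the knockdown effect was asked by the interaction, the effect with PE less that without. By edgeR none of the 7 genes had an adjusted p below 0.05, where 3.61% of all genes did. Trim26 was the 1 gene of the 7 with an unadjusted p below 0.05. Its interaction was -0.23 (95% interval -0.43 to -0.028, adjusted p = 0.244 by edgeR). DESeq2 and limma on log2(FPKM + 0.1) also gave 1 gene at an unadjusted p below 0.05, limma on log2(FPKM + 1) gave 2, and each of these tools gave 0 by adjusted p. The 95% interval was -0.20 to 0.17 for Trim25, -0.13 to 0.26 for Trim28 and -0.26 to 0.21 for Trim32. It was wide for the scarce genes, -3.23 to 1.63 for Trim30 and -0.17 to 2.07 for Trim14, and -0.51 to 0.87 for Trim21.

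**Figure D4:**
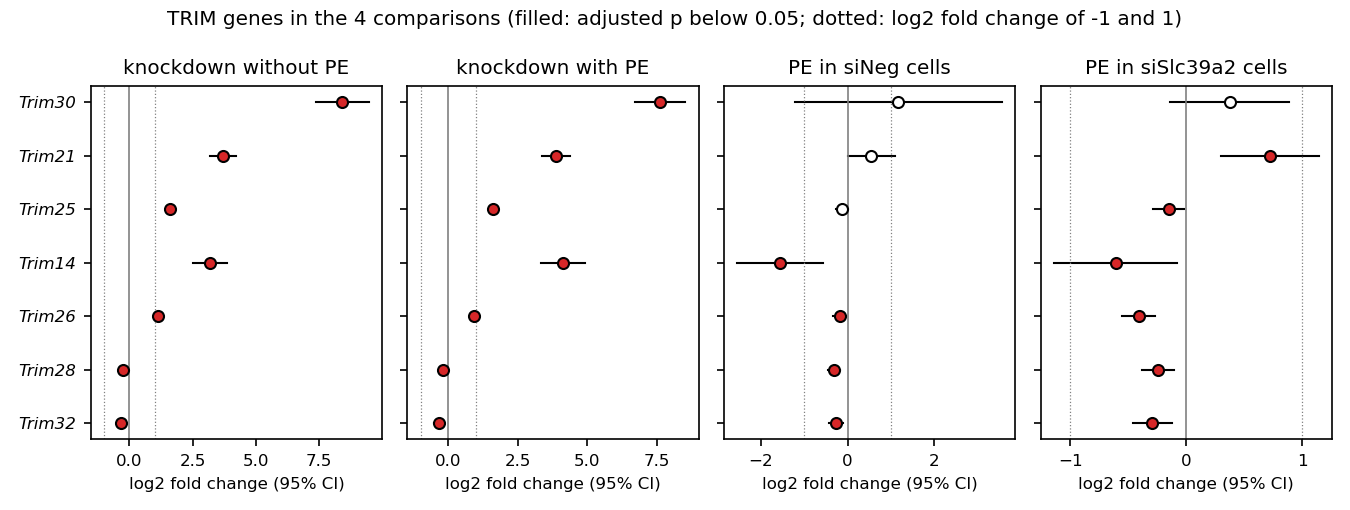
Log2FC with its 95% confidence interval for each of the 7 TRIM genes in the 4 comparisons, each panel on its own axis; filled points have an adjusted p below 0.05 by edgeR. Trim30, Trim21, Trim25, Trim14 and Trim26 lie above 0.9 in both knockdown panels, and in the PE panels only Trim14 in siNeg cells passes -1.

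Cells other than cardiomyocytes can express TRIM genes, so their markers are given beside these results. The sum of 13 macrophage markers was between 98.8 and 135 CPM in siNeg and between 53.1 and 64.8 in siSlc39a2, and between 49.1 and 63.3 in siNeg PE and between 38.4 and 46.4 in siSlc39a2 PE. Most of each sum was Lyz2, at 61.1 to 102 CPM in siNeg and 29.9 to 41.5 CPM in siSlc39a2. Of the 12 macrophage markers tested, 3 were called lower in the knockdown without PE (Mrc1, Lyz2 and Laptm5) and 1 was called higher (Aif1, log2FC 1.49). Of all genes, 5.21% were called lower and 4.57% higher. In the knockdown with PE, 1 of the 12 was called lower and 1 higher, where 5.58% and 6.03% of all genes were. The sum of 4 lymphocyte markers was between 0.0790 and 0.265 CPM in siNeg and between 0.507 and 0.643 in siSlc39a2, and between 0.0367 and 0.176 in siNeg PE and between 0.671 and 0.862 in siSlc39a2 PE. Cd79a was at 0 in all groups but siNeg, Cd3e at 0 in all but siSlc39a2, and Lck, the one tested, had 2 to 5 counts in siNeg and 12 to 19 in siSlc39a2 and was called higher in both knockdown comparisons (log2FC 1.96 and 2.66). The sum of 10 endothelial markers was between 203 and 216 CPM in siNeg and between 111 and 114 in siSlc39a2. With PE it was between 198 and 236 CPM in siNeg PE and between 115 and 134 in siSlc39a2 PE. Between siNeg PE and siSlc39a2 the macrophage sums overlapped, whereas the fibroblast, endothelial and lymphocyte sums did not. The part of these markers in the results for the 7 genes was not tested.

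The other TRIM family genes were examined by the same thresholds. Of 48 with a row, 40 were tested. In the knockdown without PE, 5 of the 40 were called higher and 2 lower, where 4.57% of all genes were called higher and 5.21% lower. With PE, 5 were called higher, where 6.03% of all genes were. Their median log2FC was 0.10 without PE and 0.14 with PE. Trim34, Trim69 and Trim5 were the highest. Trim34 and Trim5, which act on the capsids of retroviruses, had log2FCs of 2.95 (SE 0.12, adjusted p = 4.52e-10) and 2.27 (SE 0.17, adjusted p = 2.00e-07). Trim34 had 78, 92 and 100 counts in the siNeg cultures and 712, 773 and 777 in the siSlc39a2 cultures. Trim5 had 341, 415 and 373 counts against 1921, 1834 and 2144. Trim69 had 9, 13 and 5 counts against 57, 53 and 47 (log2FC 2.40). The other 2 called higher were Pml, the organiser of nuclear bodies (log2FC 1.997), and Trim6 (1.21, on 7 to 12 counts in siNeg and 18 to 28 in siSlc39a2). In the RefSeq gene order of GRCr8, Trim30c, Trim5 and Trim34 are the 3 protein-coding genes on one side of Trim30d, and olfactory receptor genes lie on the other.

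The 2 called lower were scarce. Trim66 had 37, 54 and 62 counts in the siNeg cultures and 15, 22 and 11 in the siSlc39a2 cultures (log2FC -1.80, adjusted p = 3.35e-04). Trim80 had 10, 12 and 14 counts against 7, 4 and 2 (-1.57, adjusted p = 0.0064). The TRIM ligases of striated muscle moved by less than the fold threshold. Trim63, which marks muscle proteins for breakdown, rose by 0.55 (adjusted p = 1.43e-04) without PE and by 0.50 (adjusted p = 2.63e-04) with PE. Its relative Trim55 rose by 0.54 (adjusted p = 5.64e-05) and by 0.90 (adjusted p = 5.19e-07). Trim54 was at 0.24 (adjusted p = 0.0638) and -0.17 (adjusted p = 0.177), with counts that were not whole in any sample. Without PE its side of the threshold changed in 9 of 14 alternatives, such as DESeq2 (adjusted p = 0.0373). Trim72, a membrane repair protein, fell by 0.42 (adjusted p = 4.14e-04) and by 0.48 (adjusted p = 1.25e-04). Of the 40 tested, Trim66, Pml and Trim7 had an interaction at an adjusted p below 0.05, where 3.61% of all genes did. Each missed this threshold when single cultures were left out (adjusted p by edgeR up to 0.0545, 0.0944 and 0.0706).

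**Figure D5:**
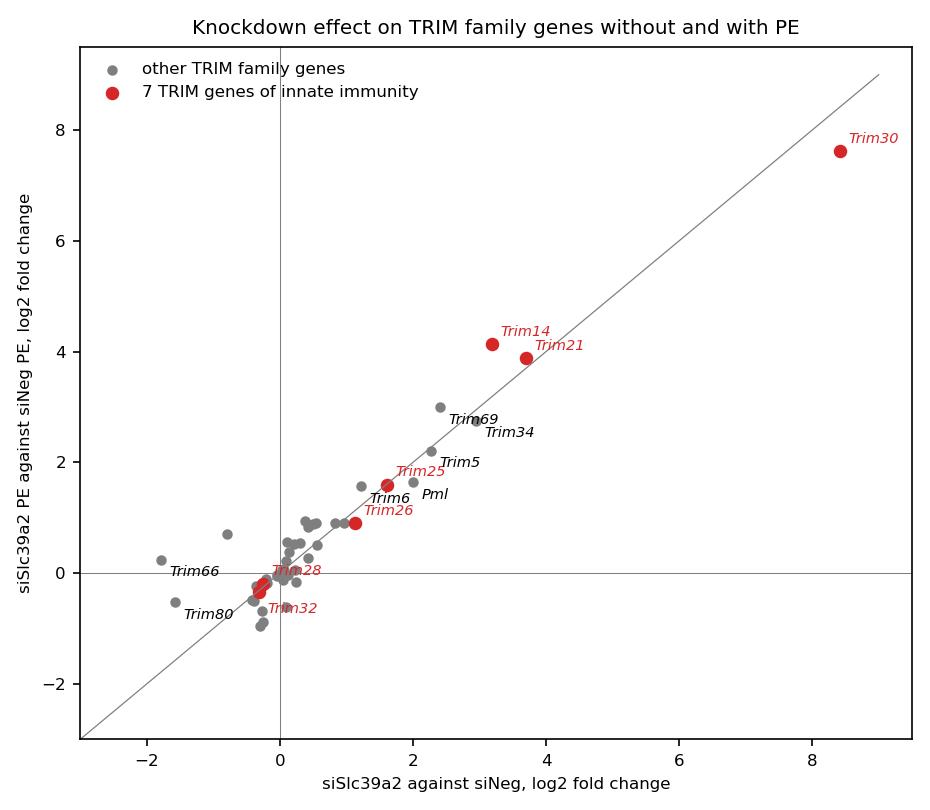
Log2FC of the knockdown without PE (horizontal) and with PE (vertical) for the 7 TRIM genes (red) and 40 other TRIM family genes (grey), with the line of equal effect. Trim30 lies at 8.42 and 7.62, and Trim66 lies at -1.80 and 0.24.

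The pathways on which these ligases act were counted from lists written by hand, beside the 4.57% of all genes called higher without PE and 6.03% with PE. The lists were written with earlier results of these data known, so their counts are a description and not a test. Among 33 genes of RNA and DNA sensing, 9 were called higher without PE and 10 with PE. Irf7, the transcription factor that amplifies interferon, had 783, 905 and 790 counts in the siNeg cultures and 136428, 142683 and 96737 in the siSlc39a2 cultures (log2FC 7.11, standard error 0.16, adjusted p = 1.68e-12). The RNA helicases Dhx58 and Ifih1, cytosolic sensors of viral RNA, were at 6.01 (SE 0.09) and 4.19 (SE 0.26). Among 26 genes of the ubiquitin and ISG15 machinery, 5 were called higher without PE and 6 with PE. Isg15, the ubiquitin-like modifier, had 207, 173 and 161 counts in the siNeg cultures and 29831, 30998 and 24640 in the siSlc39a2 cultures (7.17, standard error 0.11, adjusted p = 1.24e-13). Herc6, its ligase in rodents, had 7, 6 and 8 counts against 856, 791 and 778 (6.71, standard error 0.24). Uba7, its activating enzyme, was at 5.81 (SE 0.15).

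Among 12 genes of the interferon signal, 6 were called higher without PE and 6 with PE, where 4.57% and 6.03% of all genes were. Ifnb1, which encodes interferon beta, had 0 counts in all 6 control cultures. It had 246, 242 and 189 counts in siSlc39a2 and 46, 34 and 39 in siSlc39a2 PE. Against a floor of 3 counts per library it was at least 68.7-fold higher without PE and at least 13.2-fold higher with PE. Socs1, a feedback inhibitor of cytokine signalling, rose by 3.01 (SE 0.14, adjusted p = 2.96e-09). Of 19 corepressor partners of Trim28, edgeR, DESeq2 and limma called 0 past the fold threshold in either knockdown comparison. By edgeR 9 of the 19 had an unadjusted p below 0.05 without PE, a rule for which the share of all genes was not computed. At an adjusted p below 0.05, 7 were higher and 0 lower, where 22.8% of all genes were higher and 26.4% lower. With PE 12 were higher by this rule, where 29.2% of all genes were. Of the 19, 1, Uhrf1, was lower with PE (-0.68), where 28.1% of all genes were. The deacetylase gene Hdac1 was among those higher, at 0.57 (adjusted p = 1.14e-04) without PE and 0.70 (adjusted p = 1.70e-05) with PE.

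The genes most like each TRIM gene were found by Pearson's correlation of log2 CPM over the 12 samples, which share 4 groups and libraries, and are given as a description. Trim30 was nearest to Samd9 (r = 0.997), Ddx60 (0.996) and LOC103692066 (0.995). Trim21 was nearest to Mnda (0.998), Ifih1 (0.997) and LOC103692066 (0.996). Trim25 was nearest to Parp12 (0.999), Cxcl10 and Cmpk2 (both 0.998). Trim14 was nearest to RGD1561157, Apol3 (both 0.982) and Cxcl10 (0.980), and Trim26 to Znfx1 (0.997), Slc25a28 and Parp10 (both 0.995). Trim28 was nearest to Gorasp1 (0.987), Map7d1 (0.986) and Trmt1 (0.986). Trim32 was nearest to Ctbp1 (0.985), Alas1 (0.984) and Poldip3 (0.984). Between genes of the 7, r ran from -0.840 for Trim21 and Trim32 to 0.990 for Trim30 and Trim21. It was 0.970 for Trim28 and Trim32, and 0.976 for Trim30 and Trim25.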

How the data were processed

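RNA-seq of NRVMs in 4 groups of 3 cultures was analysed from the deposited gene tables. The authors deposited expected counts, not normalized, and FPKM values for 18483 genes. The submitters' processing notes name HISAT, Bowtie2 and build Rnor_6.0, and their versions and the counting program are not given in the sources used here. Of the expected counts, 78.7% were whole, and all were rounded. Total counts per sample, 24065539 to 28603854, limit the precision for Trim30 and Trim14, since 3 counts were about 0.1 CPM.

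Genes were kept by filterByExpr (minimum count 10), scaled by TMM and fitted in edgeR 4.0.16 (R 4.3.3) as 4 groups with 8 residual degrees of freedom. Each comparison was a quasi-likelihood F-test, with p-values adjusted over 13967 genes (Benjamini-Hochberg). A gene was called where its log2FC was past 1 in either direction and its adjusted p under 0.05. CPM use the TMM-scaled library size, and log2 CPM a prior count of 2. No replicate pair matched within sampling noise (chi-square over its degrees of freedom, 4.73 to 33.3). Fits and the motif search were tested on simulated data.

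All 7 TRIM genes are named. Other TRIM genes named are the 3 highest and 3 lowest called in the knockdown without PE, of which 2 were lower, and 4 muscle genes. Each pathway list gives its 3 largest called, except that 1 gene is not reported here. Trim7, Pml, Trim6, Trim30c, Hdac1, Uhrf1 and markers were named after their values were seen. The genes and lists were chosen with earlier results of these data known. Alternatives were DESeq2 1.42.0, RLE factors, no filter, only the groups compared, a replicate block, limma 3.58.1 after quantile normalization of log2(FPKM + 1) and log2(FPKM + 0.1), and leaving out each replicate. Scaling to total counts was added after seeing the data.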

Additional observations from a re-analysis of the deposited data

Results flagged for a closer look

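Among the genes named beside the 7, 5 differed in their knockdown effect between cells with and without PE, by the interaction term of edgeR at an adjusted p below 0.05. Over all genes tested, 504 (3.61%) did. Trim7 was named because its interaction passed this threshold. The count of 5 is therefore a description and cannot be set against that share. Trim66 had an interaction of 2.04 (standard error 0.41, adjusted p = 0.0156). It had 30, 39 and 55 counts in siNeg PE and 49, 44 and 54 in siSlc39a2 PE, and the knockdown with PE was at 0.24 (adjusted p = 0.475). Pml had -0.36 (standard error 0.08, adjusted p = 0.0320), and its knockdown effect was 1.997 without PE and 1.64 with PE. Trim7 had -0.61 (standard error 0.13, adjusted p = 0.0214), with knockdown effects of -0.26 (adjusted p = 0.0317) and -0.88 (adjusted p = 6.61e-06), the first of which lost its side of the threshold in 8 of 14 alternatives. Dhx58 had -0.51 (standard error 0.12, adjusted p = 0.0344), with effects of 6.01 and 5.50. Uba7 had -0.90 (standard error 0.19, adjusted p = 0.0179), with effects of 5.81 and 4.91. Leaving out single replicates took the adjusted p as high as 0.0545 for Trim66, 0.0944 for Pml, 0.0706 for Trim7, 0.103 for Dhx58 and 0.0545 for Uba7. Each of these 5 interactions thus missed the adjusted p threshold without at least 1 culture. Of 19 alternatives, it was missed in 10 for Pml, 9 for Dhx58, 5 each for Uba7 and Trim7, and 1 for Trim66. By limma on log2(FPKM + 0.1) the adjusted p was 0.195 for Dhx58 and 0.143 for Uba7. By limma on log2(FPKM + 1) it was 0.0747 for Uba7.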

How the results depend on the processing

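The counts of TRIM genes called in the knockdown comparisons stayed within 1.5 times under every alternative. On log2(FPKM + 1) by limma, 4 and 3 genes were called in place of 5 and 4, since Trim14 was at 0.89 and 0.65, and Trim30 was at 3.06 and 3.28. A pseudocount of 1 exceeds the control levels of both. The count lower with PE in siNeg cells, 1 in the fit of all samples, was 0 with only the groups compared, where Trim14 did not pass the low-count filter, 0 by limma on log2(FPKM + 1) and 0 on log2(FPKM + 0.1). It was between 0 and 1 when single replicates were left out. By limma on log2(FPKM + 1), all genes called numbered 610 in place of 1366 (knockdown without PE), 674 in place of 1621 (with PE), 287 in place of 922 (PE in siNeg cells), 583 in place of 1469 (PE in siSlc39a2 cells) and 85 in place of 138 (interaction). Of the single values of the 7 genes, 469 kept their direction and side of the threshold, 31 lost it, 6 gained it and 17 changed sign, all 17 in interactions that were not called. By limma on log2(FPKM + 1) and log2(FPKM + 0.1), the interaction was 0.22 and 0.091 for Trim30, -0.24 and -0.038 for Trim14, and -0.041 and -0.042 for Trim28. On total counts it was -0.065 for Trim28, and Trim26 reached -0.36 (adjusted p = 0.0332). With single replicates left out it ran from -0.076 to 0.032 for Trim25, -0.14 to 0.037 for Trim32, -0.033 to 0.10 for Trim28 and -0.070 to 0.35 for Trim21. On total counts, the share of higher calls among all calls went from 46.7% to 58.9% (knockdown without PE), 57.6% to 66.4% (PE in siNeg cells) and 45.7% to 24.7% (interaction). The fall of Trim26 with PE in siNeg cells changed side in 10 of 14 alternatives, and that of Trim25 and Trim14 with PE in siSlc39a2 cells in 7 and 5 of 14. Trim28 in the knockdown with PE missed the adjusted p threshold in 3 of 14 alternatives, each without 1 replicate. The deviations of same-numbered samples correlated at -0.011 to 0.025 in the knockdown without PE, 0.0039 to 0.32 with PE, 0.053 to 0.315 for PE in siNeg cells and -0.090 to 0.22 for PE in siSlc39a2 cells, and 2, 4, 4 and 2 of 6 samples correlated best with their own number. Not every pair was over 0.1 in any comparison, so the numbers were not taken as pairs. With the replicate block, the counts of the 7 genes called were 5, 4 and 1 as before, and Trim21 with PE in siNeg cells passed at 0.54 (adjusted p = 0.00688), as did Trim54 in the knockdown without PE (0.24, adjusted p = 0.00204) and with PE (-0.17, adjusted p = 0.0155). The cause of these changes was not tested. Depth limits Trim30 and Trim14 in the controls.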
